A study of Pleurotus ostreatus with 32 samples.

Results

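The 60 genes described here were higher in every fruiting tissue of the oyster mushroom Pleurotus ostreatus than in its vegetative mycelium, and their means in those tissues lay within 2.83-fold of one another. They were chosen from the measured values of 32 RNA sequencing libraries. FPKM is the number of read fragments of a gene scaled to its length in kilobases and to the depth of the library, and the deposited values are its log2. A gene was kept when the lowest of its mean log2 FPKM values in the 10 fruiting groups was at least 1 above its mean in mycelium, which is a 2-fold difference. The 10 means also had to span less than 1.5 on the log2 scale, and the mean count had to reach 100 in each of the 10 groups. Of 12329 genes in the count tables, 10755 had FPKM values, 6901 met the count minimum and 60 met the whole rule.

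All libraries came from strain N001, a dikaryon (a mycelium whose cells each hold a pair of unlike nuclei), grown in spawn culture in polyethylene bags. The fruiting groups were stage 1 primordia, caps and stipes of stage 3 primordia, caps and stipes of young fruiting bodies, and the cap, stipe, lamellae (the gills that bear the spores), skin and dedifferentiated cap of fruiting bodies, set against vegetative mycelium. There were 3 libraries for each group, and 2 for the dedifferentiated cap. A replicate of fruiting tissue pooled material from 3 to 8 bodies, so such a library is a mean over several bodies. In all groups one strain stands for the species. The sources used here do not say how the dedifferentiated cap was obtained. They give no ages, and name no agent and no allele. The titles number its libraries 1 and 2, and their descriptions 2 and 3; the numbers of the titles are used.

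As background, a mushroom arises when vegetative hyphae, which forage through the substrate and secrete enzymes that break it down, aggregate into knots and then into primordia in which cap and stipe are laid out. Later growth is largely by expansion of cells that are already there, and the gills form the basidia in which meiosis takes place and spores are made. Genes that stand at one raised level from the primordium to the spore-bearing body differ in this from those that mark a single stage or tissue. In these bulk samples, fewer cells of a type and less RNA per cell cannot be told apart.

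The files name genes by number only. None of those numbers matched the reference gene list used here, with 0 matches among 11849 entries, so no symbol, protein, sequence or position is given for any gene, no list of a pathway was counted, and the labelled tissues were not checked against marker genes. A gene number in the text is the label the files give it. Total counts ran from 13544462 to 25873833 per library. Stage 3 stipe replicate 3 stood apart from its group, with the lowest scaling factor of the 32 libraries (0.690). It was the lowest fruiting library for 11 of the 60 genes, beside 10 for dedifferentiated cap replicate 2 and 6 for lamellae replicate 1. The shares over all genes were not computed. Without stage 3 stipe replicate 3 the rule found 59 genes, 56 of them among the 60. Libraries of mycelium and the dedifferentiated cap moved the set further. The rule found 51 and 73 genes without dedifferentiated cap replicate 1 and replicate 2, of which 48 and 51 were among the 60. It found 98 genes without mycelium replicate 1, 63 without replicate 2 and 57 without replicate 3, of which 54, 48 and 45 were among the 60.

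**Figure D1:**
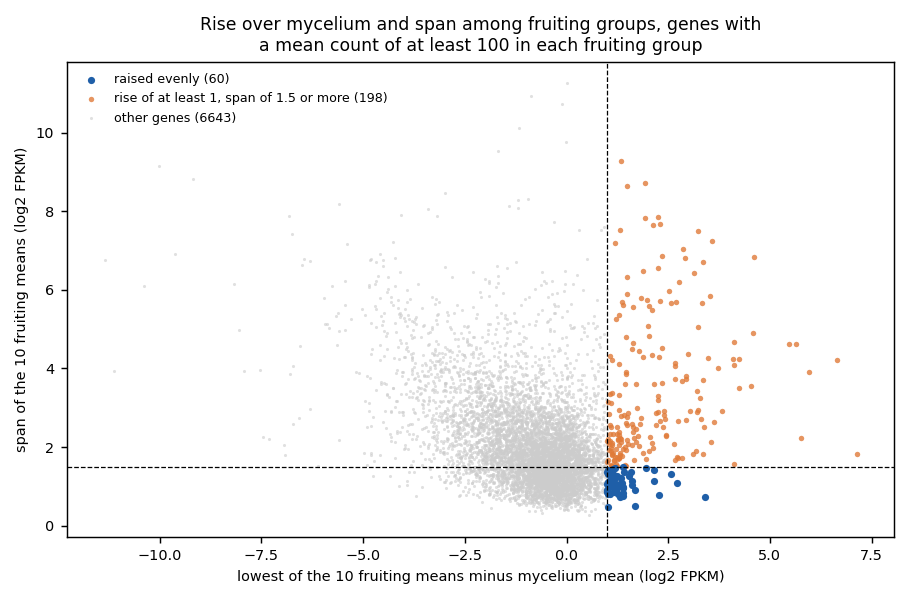
Each point is 1 of the 6901 genes whose mean count reached 100 in every fruiting group; the x axis is the lowest of the 10 fruiting means minus the mycelium mean and the y axis the span of the 10 means, both in log2 FPKM, with dashed lines at the thresholds of 1 and 1.5. The 60 genes lie in the lower right corner, and 198 genes passed the threshold for the rise with a wider span.

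The rise over mycelium was modest for most of the 60 genes. The lowest fruiting mean exceeded the mycelium mean by 1.00 to 3.4 on the log2 scale, with a median of 1.2, or 2.30-fold. It was under 1.2 in 30 genes and at least 2 in 6. Taken group by group, the median difference from mycelium over the 60 genes was 1.91 in stage 1 primordia, 2.08 in stage 3 caps, 1.89 in stage 3 stipes, 1.99 in young caps and 2.06 in young stipes. In the fruiting body it was 1.83 in cap, 1.75 in stipe, 1.77 in lamellae, 1.76 in skin and 1.46 in the dedifferentiated cap. Over all 10755 genes with FPKM values the same medians lay between -0.157 and -0.003. Over the 6901 genes that met the count minimum they lay between 0.121 and 0.227. These differences chose the genes and are given as a description.

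**Figure D2:**
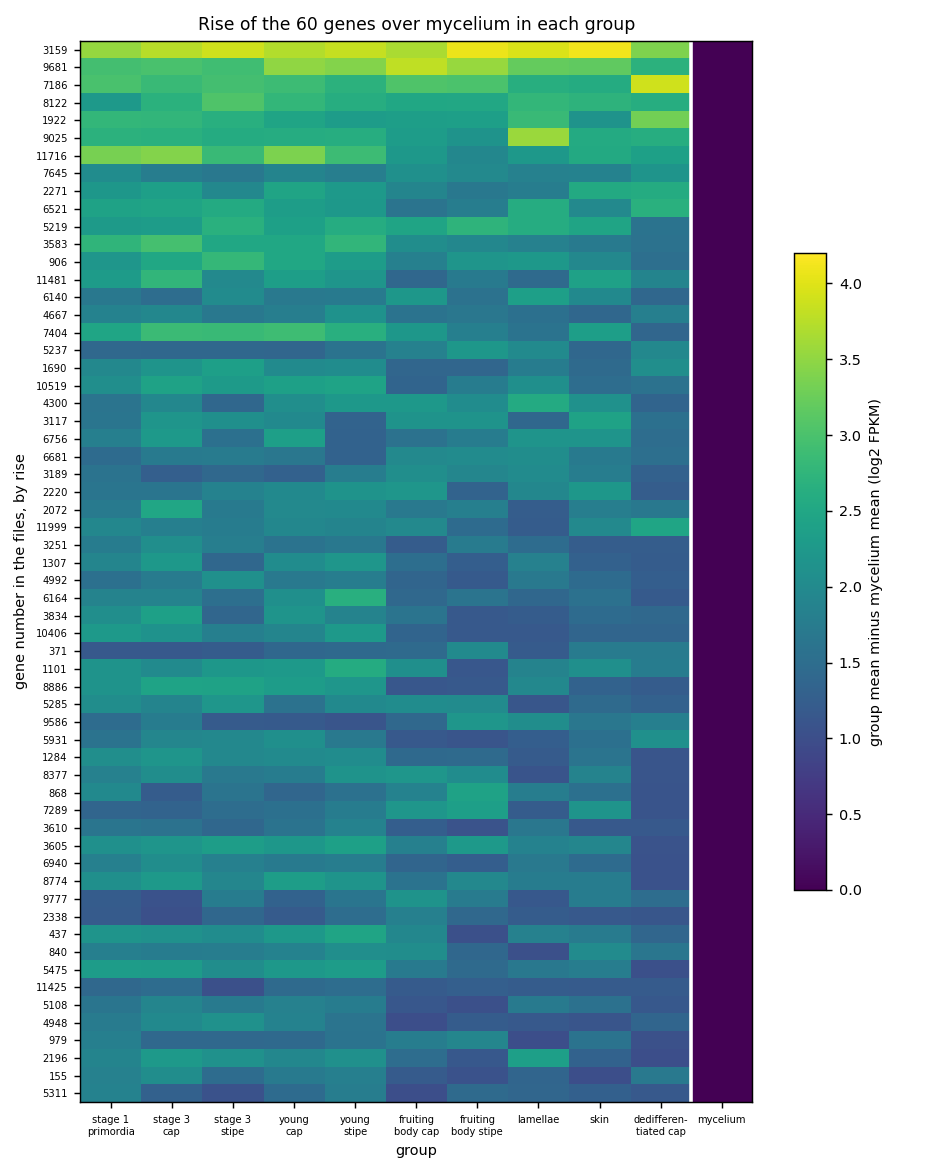
Rows are the 60 genes, ordered by the lowest fruiting mean minus the mycelium mean, and columns are the 10 fruiting groups and, at the right, mycelium; colour is the group mean minus the mycelium mean in log2 FPKM. Gene 3159, in the top row, stood 3.4 or more above mycelium in each fruiting group, and the lowest row, gene 5311, stood 1.00 above it in its lowest group.

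The edgeR test over all genes (calls need a change of 2-fold or more and a p of under 0.05 after Benjamini-Hochberg adjustment) used the same contrasts as the rule, so its counts are listed beside the background and nothing is read from them. Called higher than mycelium were 60 of the 60 genes in stage 1 primordia (background 19.3% of 10814 genes tested), 60 in stage 3 caps (23.1%), 60 in stage 3 stipes (24.5%), 60 in young caps (21.3%) and 59 in young stipes (19.1%). The counts were 59 in fruiting body caps (13.6%), 58 in fruiting body stipes (14.5%), 55 in lamellae (17.6%), 58 in skin (13.1%) and 53 in dedifferentiated caps (14.4%). In all 10 contrasts at once 50 of the 60 were called, against a background of 2.26%, and 24 when each fit held the compared groups alone, where 27 were called in the dedifferentiated cap with its 2 libraries. In 50 of the 60 genes every one of the 29 fruiting libraries lay above every one of the 3 mycelium libraries, which holds for 4.36% of all genes tested. The 10 contrasts share the mycelium libraries.

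The largest rises were those of genes 3159, 9681, 7186, 8122 and 1922. Gene 3159 had 34.6, 33.9 and 32.7 FPKM in stage 1 primordia, 30.9, 41.5 and 47.1 in stage 3 caps, 29.9, 48.9 and 54.6 in stage 3 stipes, 28.7, 35.9 and 54.8 in young caps and 44.0, 33.6 and 47.3 in young stipes. Its libraries held 30.5, 40.3 and 40.4 FPKM in fruiting body caps, 51.6, 45.4 and 49.7 in fruiting body stipes, 39.7, 56.1 and 42.2 in lamellae, 49.4, 43.4 and 59.6 in skin and 37.4 and 24.97 in dedifferentiated caps, against 2.22, 5.68 and 1.94 FPKM in mycelium. Mycelium replicate 2 was the highest mycelium library, and even so the lowest fruiting library, dedifferentiated cap replicate 2, was above it. The group means lay 3.4 to 4.12 above mycelium on the log2 scale, with skin highest. Its span of 0.72 was also the third smallest of the 60.

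Gene 9681 had 153, 81.4 and 93.2 FPKM in stage 1 primordia, 106, 118 and 103 in stage 3 caps, 97.6, 107 and 105 in stage 3 stipes, 173, 185 and 116 in young caps and 158, 154 and 129 in young stipes. Its libraries held 198, 178 and 194 FPKM in fruiting body caps, 166, 148 and 170.2 in fruiting body stipes, 147, 101 and 137 in lamellae, 117, 159 and 99.98 in skin and 90.8 and 87.6 in dedifferentiated caps, against 10.4, 15.4 and 16.0 FPKM in mycelium. Every fruiting library was above every mycelium library, and caps of the fruiting body were the highest group at 189.9 ± 10.8 FPKM (mean ± SD, n = 3). The lowest group was the dedifferentiated cap at 89.2 ± 2.26 FPKM (n = 2).

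Gene 7186 had 16.8, 25.1 and 26.0 FPKM in stage 1 primordia, 24.3, 17.1 and 19.6 in stage 3 caps, 22.8, 15.4 and 28.8 in stage 3 stipes, 19.0, 20.5 and 22.6 in young caps and 18.0, 17.8 and 18.7 in young stipes. Its libraries held 25.1, 19.6 and 24.8 FPKM in fruiting body caps, 23.9, 25.5 and 19.2 in fruiting body stipes, 20.5, 13.8 and 18.3 in lamellae, 16.9, 17.3 and 16.1 in skin and 40.7 and 43.1 in dedifferentiated caps, against 3.72, 2.49 and 2.38 FPKM in mycelium. The dedifferentiated cap stood above all other fruiting libraries in both of its replicates, while the libraries of the other 9 groups lay between 13.8 and 28.8 FPKM and their group means averaged 20.5 FPKM.

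Gene 8122 had 77.4, 80.0 and 77.9 FPKM in stage 1 primordia, 85.1, 108 and 126 in stage 3 caps, 89.4, 67.8 and 406 in stage 3 stipes, 90.8, 81.4 and 191 in young caps and 92.7, 91.5 and 118 in young stipes. Its libraries held 79.3, 133 and 75.3 FPKM in fruiting body caps, 109, 99.0 and 77.1 in fruiting body stipes, 73.3, 158 and 121 in lamellae, 133, 59.4 and 159 in skin and 81.8 and 124 in dedifferentiated caps, against 25.4, 9.90 and 17.3 FPKM in mycelium. Stage 3 stipe replicate 3 and young cap replicate 3 were the highest libraries, both far from the other libraries of their groups, and mycelium was below all fruiting libraries.

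Gene 1922 had 41.8, 36.3 and 27.0 FPKM in stage 1 primordia, 26.7, 47.2 and 31.9 in stage 3 caps, 22.7, 26.9 and 52.0 in stage 3 stipes, 25.6, 19.2 and 42.8 in young caps and 24.2, 35.0 and 18.9 in young stipes. Its libraries held 22.3, 24.1 and 32.4 FPKM in fruiting body caps, 23.3, 27.1 and 27.9 in fruiting body stipes, 39.9, 30.3 and 39.9 in lamellae, 19.8, 22.2 and 26.1 in skin and 71.7 and 34.4 in dedifferentiated caps, against 7.23, 4.82 and 3.68 FPKM in mycelium. The 2 dedifferentiated caps differed from each other, and replicate 2 lay among the libraries of the other groups.

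**Figure D3:**
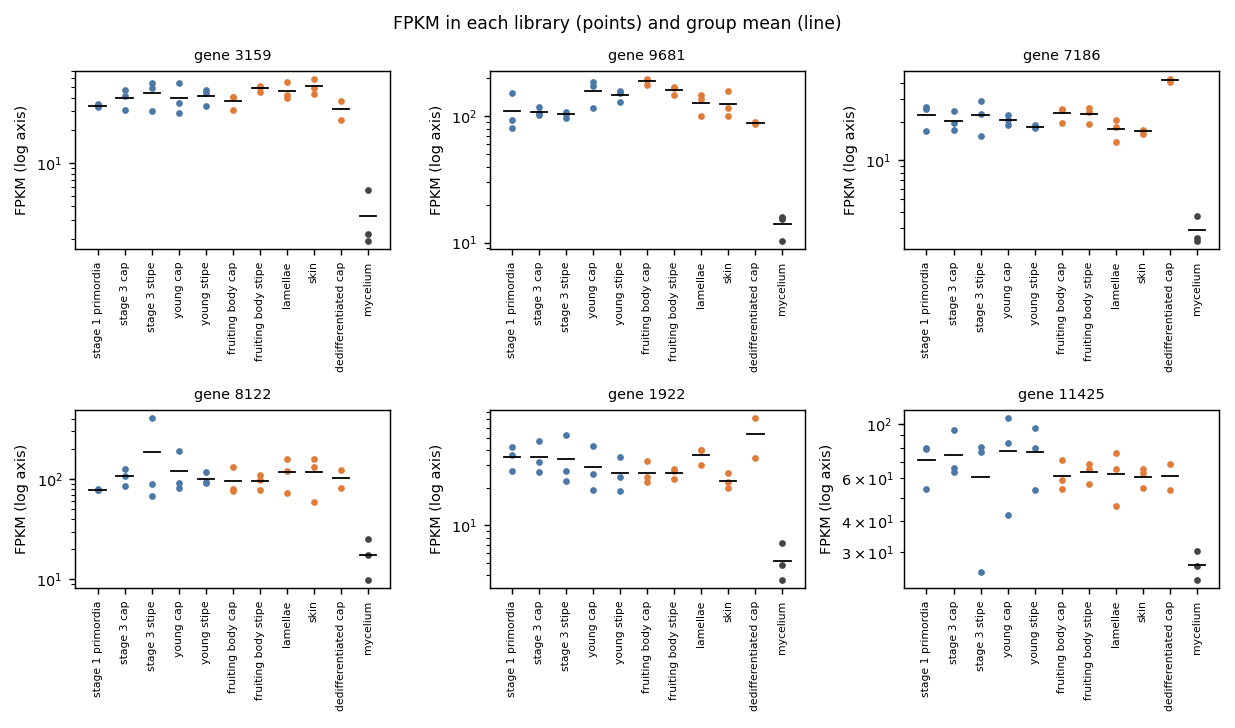
FPKM (log axis) in each library (points) and the arithmetic mean of each group (line) for the 5 genes with the largest rise and for gene 11425, which had the smallest span; blue marks primordia and young bodies, orange the fruiting body and grey mycelium. Of these genes, 11425 had 1 fruiting library, stage 3 stipe replicate 3 at 24.7 FPKM, below the highest mycelium library at 30.1 FPKM.

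Among the 60 genes the span of the 10 fruiting means ran from 0.48 to just under the threshold of 1.5, with a median of 1.09 on the log2 scale, and 20 genes spanned less than 1. The flattest were genes 11425, 7645, 3159, 6681 and 4667. Gene 11425 had 54.4, 79.8 and 79.1 FPKM in stage 1 primordia, 94.5, 65.8 and 63.8 in stage 3 caps, 80.9, 76.5 and 24.7 in stage 3 stipes, 83.5, 106 and 42.6 in young caps and 79.5, 53.7 and 96.7 in young stipes. Its libraries held 71.1, 54.2 and 59.1 FPKM in fruiting body caps, 68.9, 56.7 and 65.2 in fruiting body stipes, 76.0, 65.6 and 46.0 in lamellae, 62.8, 65.2 and 54.8 in skin and 68.3 and 53.9 in dedifferentiated caps, against 30.1, 26.3 and 23.0 FPKM in mycelium. The group means of this gene lay between 60.7 and 77.3 FPKM, a narrower range than that of its single libraries. Its counts were fractions in 12 of 32 libraries, so its value is uncertain where reads were shared between genes.

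Gene 7645 had 134, 122 and 102 FPKM in stage 1 primordia, 123, 77.3 and 101 in stage 3 caps, 98.1, 69.3 and 118 in stage 3 stipes, 99.6, 93.8 and 135 in young caps and 98.8, 102 and 100.04 in young stipes. Its libraries held 98.8, 155 and 126 FPKM in fruiting body caps, 127, 118 and 97.0 in fruiting body stipes, 94.5, 107 and 111 in lamellae, 105, 86.4 and 129 in skin and 107 and 161 in dedifferentiated caps, against 38.7, 21.8 and 28.6 FPKM in mycelium. The lowest fruiting library, stage 3 stipe replicate 2 at 69.3 FPKM, was above the highest mycelium library, and the highest was dedifferentiated cap replicate 2 at 161 FPKM. Gene 6681 ran from 243 to 564 FPKM over the 29 fruiting libraries, with a median of 423, against 144, 105 and 114 FPKM in mycelium. Gene 4667 ran from 25.6 to 66.5 FPKM over the 29 fruiting libraries, with a median of 40.8, against 18.7, 9.40 and 13 FPKM in mycelium. Between single libraries each of these flat genes still varied, by 0.292 (gene 7645), 0.272 (gene 6681) and 0.439 (gene 4667) on the log2 scale (SD within groups).

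The genes with the highest level per kilobase were 8774, 10406, 840, 3251 and 2196. Gene 8774 had 1763, 1865 and 2588 FPKM in stage 1 primordia, 2843, 1804 and 2392 in stage 3 caps, 2039.5, 1669.9 and 1807 in stage 3 stipes, 2199, 3001 and 2156 in young caps and 2538, 1792 and 2214 in young stipes. Its libraries held 1119, 2249 and 1234 FPKM in fruiting body caps, 1975, 1902 and 1737 in fruiting body stipes, 1173, 2872 and 1309 in lamellae, 1817, 1266 and 1914 in skin and 992 and 1017 in dedifferentiated caps, against 448, 759.9 and 327 FPKM in mycelium. Primordia and young bodies were at or above 1669.9 FPKM in every library, lamellae replicate 2 stood well above the other lamellae, and the dedifferentiated cap was the lowest group. The group means ran from 1004 to 2452 FPKM, against 511 ± 224 FPKM in mycelium (mean ± SD, n = 3).

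Gene 10406 had 1673, 1990.3 and 2605 FPKM in stage 1 primordia, 2209, 1988 and 1521 in stage 3 caps, 2481, 1921 and 688 in stage 3 stipes, 1628, 2104 and 1207 in young caps and 2663, 1288 and 2542 in young stipes. Its libraries held 1131, 1383 and 808 FPKM in fruiting body caps, 871, 1034 and 990.3 in fruiting body stipes, 929.7, 1117 and 839 in lamellae, 1036, 1361 and 942 in skin and 1233 and 970.3 in dedifferentiated caps, against 618, 396 and 313 FPKM in mycelium. Its counts were fractions in 20 of 32 libraries, the most of the 60 genes, so its level is uncertain where reads are shared. It was higher in primordia and young bodies than in most libraries of the fruiting body, with stage 3 stipe replicate 3 as the exception.

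Gene 840 ran from 663 to 1957 FPKM over the 29 fruiting libraries, with a median of 1287, against 211, 821 and 297 FPKM in mycelium. Its lamellae libraries held 840.4, 790.4 and 663 FPKM, and lamellae replicates 2 and 3 and stage 3 stipe replicate 3 were below mycelium replicate 2. The lowest rise of this gene was 1.03 on the log2 scale, 1.60 without mycelium replicate 2 and 0.62 without mycelium replicate 1. Gene 3251 ran from 680.0 to 2066 FPKM over the 29 fruiting libraries, with a median of 1226, against 481, 495 and 275 FPKM in mycelium. This gene has a coding length of only 69 bases, so a given count makes a higher FPKM than in a longer gene. Gene 2196 ran from 284 to 1298 FPKM over the 29 fruiting libraries, with a median of 602, against 149.7, 203 and 143 FPKM in mycelium. It was highest in lamellae replicate 2.

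Within the allowed span the 60 genes sat slightly higher in primordia and young fruiting bodies than in the fruiting body groups. Their median deviation from their own mean over the 10 groups was positive in the 5 groups of primordia and young bodies, from 0.04 in stage 3 stipes to 0.19 in young stipes on the log2 scale, and negative in the 5 groups of the fruiting body, from -0.34 in the dedifferentiated cap to -0.09 in lamellae. The mean over the primordial and young groups was above that over the fruiting body groups in 42 genes and not above it in 18. That is 70.0% of the 60 genes, beside 50.7% of the 6901 genes that met the count minimum. The median of this difference was 0.28 for the 60 genes and 0.02 for the 6901 genes. The count of 42 was between 40 and 45 on 4 other scales, without the dedifferentiated cap, and without each fruiting library in turn. These alternatives were chosen after seeing the data.

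Stage 3 caps held the highest mean for 12 of the 60 genes (20.0%, beside 12.8% of all 10755 genes). Young stipes did so for 10 (16.7%, beside 5.06%) and stage 1 primordia for 2 (3.33%, beside 4.26%). The dedifferentiated cap held the lowest mean for 19 genes and fruiting body stipes for 11 (18.3%, beside 16.8% of all genes). The dedifferentiated cap was lowest for 31.7% of the 60 genes and 22.2% of all 10755 genes, and highest for 11.7% of the 60 and 23.5% of all genes. With 2 libraries its means are less precise than those of the other groups.

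**Figure D4:**
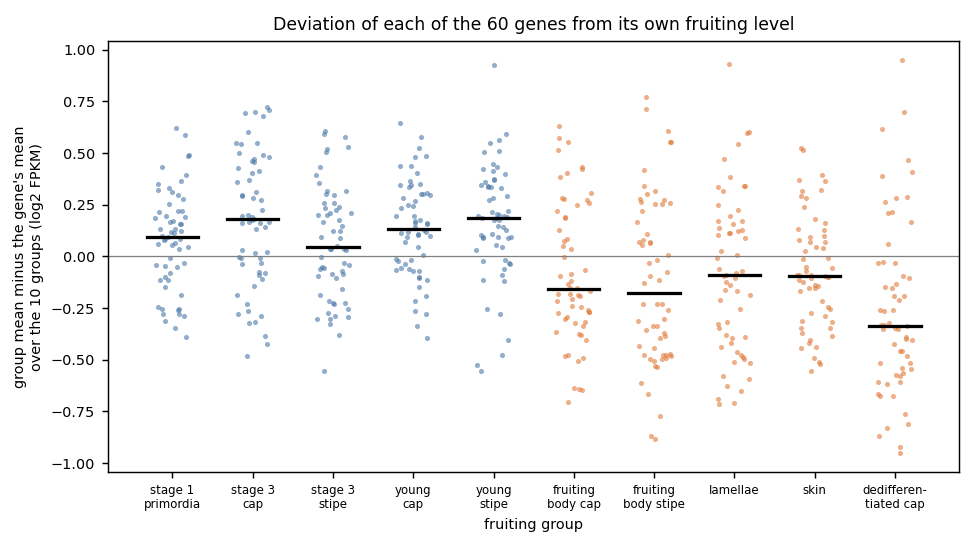
Points are the 60 genes in each fruiting group, as group mean minus the gene's own mean over the 10 groups (log2 FPKM), and black lines are medians; blue marks primordia and young bodies and orange the fruiting body. The medians lie between 0.04 and 0.19 in the 5 earlier groups and between -0.34 and -0.09 in the 5 later ones.

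Differences between fruiting groups were capped by the rule, so the calls here too are a description. An F test over the 10 groups (edgeR, adjusted p under 0.05) called 25 of the 60 genes, with a background of 77.3% of all genes tested. In 12 comparisons of one fruiting group with another, at an adjusted p under 0.05 and at least 2-fold (edgeR), 14 genes had 17 calls and 46 genes had none. Fruiting body caps against young caps gave 3 genes lower (background 16.9%), which were 8886, 10519 and 11716. Fruiting body stipes against young stipes gave 4 genes lower (13.4%), which were 437, 1101, 8886 and 10406, and 1 higher (20.8%), which was 9586. The total of 17 calls was 33 with library size alone as the scaling, 26 when each fit held the compared groups alone and 26 without dedifferentiated cap replicate 1. For caps the calls numbered 0 without fruiting body cap replicate 3 and 5 without replicate 2 or without dedifferentiated cap replicate 1, and for stipes 3 without fruiting body stipe replicate 1 or young stipe replicate 3, 8 without young stipe replicate 2 and 9 without dedifferentiated cap replicate 1.

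Gene 8886 was the only one of the 60 called in both of these steps. It had 46.3, 61.9 and 33.9 FPKM in fruiting body caps, against 90.03, 108 and 117 FPKM in young caps. In stipes it had 46.9, 49.4 and 45.4 FPKM in fruiting bodies, against 95.1, 84.8 and 113 FPKM in young bodies. Neither pair of groups overlapped. For this gene and the called genes below, a lack of overlap is seen in the same libraries that gave the calls. The share of all genes without overlap was not computed for these comparisons, so nothing is read from it.

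In stipes, gene 437 had 12.9, 13.8 and 17.6 FPKM in fruiting bodies, against 43.3, 31.5 and 43.7 FPKM in young bodies. Gene 1101 had 24.8, 34.3 and 43.0 FPKM in fruiting body stipes, against 96.6, 63.0 and 121 FPKM in young stipes. Gene 9586 had 31.5, 36.2 and 25.7 FPKM in fruiting body stipes, against 13.9, 20.4 and 10.8 FPKM in young stipes. In each of these 3 genes the stipe groups did not overlap, in the same libraries that gave the calls. DESeq2 called 0 genes higher in this comparison, gene 9586 included. In caps, gene 10519 had 23.2, 27.7 and 19.7 FPKM in fruiting bodies, against 43.6, 57.9 and 43.4 FPKM in young bodies, without overlap.

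Against fruiting body caps, lamellae gave 2 genes higher (background 14.1%), which were 6521 and 9025, and 1 lower (13.2%), which was 8377. Skin gave 1 gene higher (3.33%), which was 11481. The dedifferentiated cap gave 2 higher (19.9%), which were 1922 and 6521, and 3 lower (14.5%), which were 7289, 8377 and 9681. Gene 6521 had 25.4, 55.5 and 28.3 FPKM in lamellae and 32.8 and 38.2 in dedifferentiated caps, against 15.1, 23.5 and 14.4 FPKM in fruiting body caps. Gene 8377 had 288, 235 and 319.9 FPKM in lamellae and 224 and 353 in dedifferentiated caps, against 506, 659 and 661 FPKM in fruiting body caps. In neither gene did a lamella or dedifferentiated cap library overlap the cap libraries, again in the libraries that gave the calls. These 3 comparisons share the cap libraries. Skin had 0 calls without cap replicate 1, cap replicate 3 or skin replicate 3. Lamellae had 1 without lamellae replicate 2, 5 without lamellae replicate 1 or 3 and 6 without cap replicate 2. The dedifferentiated cap had 8 without its replicate 1, 3 without its replicate 2 or cap replicate 1, and 2 without cap replicate 2. Genes named from these calls alone were picked after their values were seen. The other 7 comparisons, between primordial and young groups or of cap with stipe within a stage, called 0 of the 60 genes in edgeR. By the same rule of adjusted p and fold, and with both directions together, the backgrounds were 4.78% of genes for stage 3 caps and 2.17% for stage 3 stipes against stage 1 primordia, 0.250% for young against stage 3 caps and 0.259% for young against stage 3 stipes. For cap against stipe they were 5.47% in stage 3, 3.32% in young bodies and 1.68% in fruiting bodies. At an unadjusted p under 0.05 (edgeR), with no fold threshold, the counts among the 60 genes were 1 for stage 3 caps and 6 for stage 3 stipes against stage 1 primordia, 1 for young against stage 3 caps and 4 for young against stage 3 stipes. They were 5 for cap against stipe in stage 3, 2 in young bodies and 5 in fruiting bodies. The backgrounds above belong to the other rule. The share of all genes at an unadjusted p under 0.05 was not computed, so nothing is read from these counts. A single gene was called for stage 3 stipes against stage 1 primordia without stage 3 stipe replicate 1 or 2, for young against stage 3 stipes without stage 3 stipe replicate 1, and for cap against stipe in stage 3 without stage 3 stipe replicate 2 or 3. DESeq2 called 1 gene for cap against stipe in fruiting bodies and 0 in the other 6.

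For each fruiting group the gene furthest above its own mean there was named, whether or not it was also raised in other groups. In stage 1 primordia and in young caps this was gene 11716, whose highest group was stage 3 caps. Gene 11716 had 480.0, 446 and 406 FPKM in stage 1 primordia, 511, 441 and 457 in stage 3 caps, 388, 287 and 278 in stage 3 stipes, 423, 529.6 and 412 in young caps and 355, 257 and 358 in young stipes. Its libraries held 246, 219 and 160.3 FPKM in fruiting body caps, 173, 159 and 176 in fruiting body stipes, 223, 189 and 211 in lamellae, 225, 292 and 257 in skin and 234 and 225 in dedifferentiated caps, against 58.2, 33.7 and 42.5 FPKM in mycelium. The 3 lowest libraries of stage 3 and young stipes lay below skin replicate 2, and all other primordial and young libraries were above every fruiting body library. The difference between the means of the earlier and later groups was 0.90 on the log2 scale.

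In stage 3 caps it was gene 11481, with 81.9, 85.6 and 79.3 FPKM there and a mean of 49.3 over the other 9 groups, against 14.4, 11.8 and 10.3 FPKM in mycelium. Skin of the fruiting body, at 63.0, 53.0 and 78.6 FPKM, was also above fruiting body cap, at 27.6, 39.4 and 29.8 FPKM, without overlap. In young stipes it was gene 6164, with 561, 611 and 312 FPKM there and 90.8, 75.7 and 63.0 FPKM in mycelium. Its stage 3 stipes had 341, 348 and 89.2 FPKM and its young caps 573, 556 and 105, so 1 library of each group was far below the rest. Gene 6164 has a coding length of 54 bases, the shortest of the 60.

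In fruiting body caps it was gene 9777, with 168, 158 and 193 FPKM there and 110.0 over the other 9 groups, against 29.7, 44.9 and 43.0 FPKM in mycelium. In fruiting body stipes it was gene 868. Gene 868 had 111, 110.2 and 122 FPKM in stage 1 primordia, 69.6, 73.6 and 58.0 in stage 3 caps, 92.0, 77.8 and 93.9 in stage 3 stipes, 76.5, 69.5 and 77.8 in young caps and 114, 62.4 and 83.5 in young stipes. Its libraries held 113, 104 and 96.9 FPKM in fruiting body caps, 154, 157 and 148 in fruiting body stipes, 106, 88.5 and 102 in lamellae, 80.6, 91.6 and 79.5 in skin and 67.7 and 54.3 in dedifferentiated caps, against 27.0, 35.2 and 24.4 FPKM in mycelium. Its fruiting body stipes were the 3 highest libraries of all, and its SD within groups of 0.20 on the log2 scale was the smallest of the 60 genes.

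In lamellae it was gene 9025. Gene 9025 had 568, 232 and 244 FPKM in stage 1 primordia, 217, 355 and 388 in stage 3 caps, 179.5, 284 and 501 in stage 3 stipes, 265, 314 and 319 in young caps and 243, 400.2 and 284 in young stipes. Its libraries held 219, 311 and 217 FPKM in fruiting body caps, 244, 225 and 192 in fruiting body stipes, 547, 525 and 694 in lamellae, 253, 289.5 and 338 in skin and 329 and 273 in dedifferentiated caps, against 52.0, 35.5 and 64.1 FPKM in mycelium. Lamellae averaged 588 ± 91.8 FPKM (mean ± SD, n = 3), and stage 1 primordia replicate 1 alone among the other libraries reached their range. In the dedifferentiated cap gene 7186, described above, leaned furthest.

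In stage 3 stipes gene 4948 and in skin gene 3117 leaned furthest, and these were also the 2 genes with the largest SD within groups, 0.705 and 0.792 on the log2 scale. Gene 4948 had 384, 230.3 and 201 FPKM in stage 1 primordia, 178, 437 and 388 in stage 3 caps, 259.9, 162 and 954 in stage 3 stipes, 245, 155 and 600.4 in young caps and 199.7, 354 and 194 in young stipes. Its libraries held 122, 238 and 136 FPKM in fruiting body caps, 207, 191 and 152 in fruiting body stipes, 122, 186 and 241 in lamellae, 181, 106 and 245 in skin and 158 and 259 in dedifferentiated caps, against 132, 58.8 and 61.2 FPKM in mycelium. The high mean of stage 3 stipes came from replicate 3, and young cap replicate 3 was next. Its counts were fractions in 7 libraries.

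Gene 3117 had 121, 67.8 and 50.2 FPKM in stage 1 primordia, 62.2, 159 and 133 in stage 3 caps, 63.5, 45.6 and 367 in stage 3 stipes, 79.2, 50.2 and 216 in young caps and 49.5, 92.8 and 48.6 in young stipes. Its libraries held 80.7, 126 and 118 FPKM in fruiting body caps, 118, 104 and 99.1 in fruiting body stipes, 53.8, 60.1 and 79.3 in lamellae, 129, 87.1 and 185 in skin and 59.8 and 82.7 in dedifferentiated caps, against 50.5, 12.5 and 21.7 FPKM in mycelium. Stage 3 stipe replicate 3 and young cap replicate 3 were again the highest libraries, and 5 fruiting libraries were not above mycelium replicate 1. Genes 4948, 3117 and 8122 thus shared their high libraries. What set those libraries apart was not tested.

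Gene 7289 had the second smallest SD within groups, 0.22. It had 159, 164 and 146 FPKM in fruiting body stipes, 124, 136 and 149 in skin and 120, 167 and 137 in fruiting body caps. Lamellae had 69.1, 61.2 and 82.2 FPKM and dedifferentiated caps 79.2 and 51.7, against 31.1, 31.99 and 27.7 FPKM in mycelium. Stipe, skin and cap of the fruiting body were apart from lamellae and the dedifferentiated cap, within a span of 1.29. The means of the primordial and young groups lay between 76.5 and 103 FPKM.

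In 10 of the 60 genes at least 1 fruiting library was not above the highest mycelium library. In 6 of these genes (155, 3189, 3834, 4300, 6164 and 11425) that was stage 3 stipe replicate 3 alone. Gene 155, for example, had 88.0 FPKM in that library, against 136 FPKM in mycelium replicate 1. The other 4 genes were 840, 3117, 4948 and 5285, with 2 to 5 such libraries each. Mycelium replicate 1 was the highest mycelium library for 38 of the 60 genes, replicate 2 for 15 and replicate 3 for 7. The shares over all genes were not computed, so nothing is read from these counts. Across the 60 genes the median SD within groups was 0.37 over the fruiting groups and 0.39 in mycelium, beside 0.41 and 0.46 for the 6901 genes.

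Together the 60 genes held a small share of all counts. The share was 1.27% ± 0.179 in stage 1 primordia, 1.33% ± 0.140 in stage 3 caps, 1.19% ± 0.306 in stage 3 stipes, 1.35% ± 0.195 in young caps and 1.38% ± 0.218 in young stipes (mean ± SD, n = 3 each). It was 0.924% ± 0.127 in fruiting body caps, 0.784% ± 0.0207 in fruiting body stipes, 1.08% ± 0.140 in lamellae and 1.06% ± 0.0193 in skin (n = 3 each), 0.831% ± 0.0595 in dedifferentiated caps (n = 2) and 0.283% ± 0.0367 in mycelium (n = 3). The lowest fruiting library, fruiting body stipe replicate 2 at 0.770%, was above the highest mycelium library at 0.325%. The rule chose genes that were higher in every fruiting group, so this gap is a description. Stage 3 stipe replicate 3 held 0.841%, against 1.37% in both of the other stage 3 stipes.

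**Figure D5:**
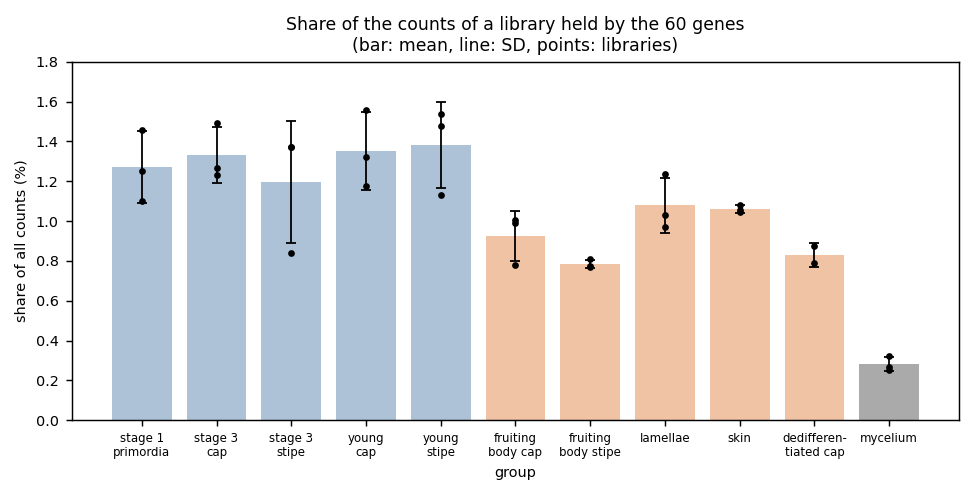
Share of all counts of a library that fell on the 60 genes, in percent, for the 10 fruiting groups and mycelium; bars are means, lines the SD between libraries and points the libraries, with primordia and young bodies in blue, the fruiting body in orange and mycelium in grey. Mycelium libraries held 0.255% to 0.325% and fruiting libraries at least 0.770%, a gap that the rule itself shapes.

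None of the 60 genes was near silent in mycelium. Mean mycelium FPKM was between 1 and 10 in 12 genes, between 10 and 100 in 39 and at 100 or more in 9, and under 1 in 0. The median over the 60 genes was 78.4 FPKM over the fruiting groups and 19.7 FPKM in mycelium. Among the 198 genes that were raised in all 10 fruiting groups with a wider span, the medians were 191 and 11.99 FPKM, and mycelium was under 1 FPKM in 10 of them. The even set thus differed from the uneven one in level, a contrast that the rule itself shapes and that was not tested.

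The deposited FPKM values could be rebuilt from the counts, which gives the gene length the authors used. All lengths of the 60 genes were multiples of 3, so they are coding lengths without untranslated regions. They ran from 54 to 3174 bases with a median of 1002, beside 1050 bases for the 198 unevenly raised genes and 969 for the 6901 genes. The middle range (first to the third quartile) of the 60 genes lay between 618 and 1411 bases, and that of the 6901 between 507 and 1566. Gene 4992 had the longest coding sequence of the 60, and its FPKM ran from 22.7 to 63.1 in fruiting libraries, against 11.7, 11.97 and 12.7 in mycelium. It was named for its length after the values were seen. Counts were fractions in at least 1 library for 20 of the 60 genes, or 33.3%, beside 25.7% of the 6901 genes. The level of such a gene is uncertain where reads were shared between similar genes.

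At the limit on span used here, even rises were fewer than uneven ones. Of the 6901 genes with enough counts, 258 stood at least 2-fold above mycelium in all 10 fruiting groups. The 60 even ones were 23.3% of those. The median span of all 6901 genes was 1.83 on the log2 scale, which is itself above that limit. The share of the 6901 genes below the limit was not computed. With the limit at 2 the rule found 104 genes. The split between even and uneven rises thus depends on the cut and is given as a description. The reverse pattern, with the highest fruiting mean at least 1 below mycelium on the log2 scale and the same limits on span and count, held for 84 genes. Within the fruiting groups those 84 leaned the other way, with the earlier groups above the later ones in 19 of 84, against 42 of 60 among the raised genes. The median span was 1.09 in the 60 raised genes and 1.12 in the 84 lowered genes. The direction of a lean within such narrow spans was not tested.

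The thresholds pass through a continuum of genes. Just inside the limit on the rise lay genes 5311, 155 and 2196, with rises of 1.002, 1.004 and 1.005 on the log2 scale, and just outside it genes 8294, 747 and 4624, with 0.994, 0.981 and 0.978. Gene 8294 averaged 3978 FPKM over the fruiting groups and 1477 FPKM in mycelium, more than any of the 60 genes. Just inside the limit on the span lay genes 7404, 11716 and 6164, with spans of just under 1.5, 1.472 and 1.464, and just outside it genes 4610, 9258 and 11460, with 1.504, 1.508 and 1.509. For the count minimum, genes 6756, 6164 and 1922 had lowest group means of 112, 159.7 and 174 counts, and genes 2226, 2713 and 2487 had 78, 58 and 38.7. Gene 6756, the least counted of the 60, ran from 3.13 to 15.1 FPKM in fruiting libraries, against 1.75, 2.05 and 1.44 FPKM in mycelium, with no overlap.

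Many of the 60 genes met the rule only narrowly. When each of the 32 libraries was left out in turn, every gene was found again in at least 26 of the 32 repeats, and 16 genes in all of them. The rise and span of a gene use only mycelium and its lowest and highest fruiting groups. Leaving out a library of another group usually cannot change whether it meets the rule, so much of these counts follows from the definition. Of these 16, 14 also met the rule on each of 5 other scales, which were log2 of FPKM + 1, CPM (counts per mega of scaled total counts) with 3 scalings, and the log2 of mean FPKM. They were genes 1307, 1690, 2271, 3159, 4667, 5219, 6521, 6681, 7186, 7645, 8122, 9681, 10519 and 11999. They were singled out after their values were seen. Their lowest rise ran from 1.22 in gene 1307 to 3.4 in gene 3159.

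Several of these genes have not been described yet. Gene 1307 ran from 136 to 462 FPKM over the 29 fruiting libraries, with a median of 274, against 83.4, 88.8 and 64.3 FPKM in mycelium. Gene 2271 ran from 45.7 to 133 FPKM over the 29 fruiting libraries, with a median of 68.1, against 17.5, 15.0 and 14.7 FPKM in mycelium. Both were raised in every fruiting library. Gene 5219 ran from 30.0 to 80.2 FPKM over the 29 fruiting libraries, with a median of 58.0, against 13.02, 8.51 and 10.6 FPKM in mycelium. Gene 6521 ran from 14.4 to 55.5 FPKM over the 29 fruiting libraries, with a median of 26.8, against 8.75, 5.18 and 3.89 FPKM in mycelium. Gene 6521 was highest in lamellae replicate 2 and lowest in fruiting body cap replicate 3. Gene 1690 ran from 18.9 to 54.4 FPKM over the 29 fruiting libraries, with a median of 34.5, against 14.3, 5.57 and 10.3 FPKM in mycelium. Gene 10519 ran from 19.7 to 59.4 FPKM over the 29 fruiting libraries, with a median of 37.6, against 8.54, 8.79 and 10.1 FPKM in mycelium. Both had their lowest library in fruiting body cap replicate 3. Gene 11999 ran from 17.5 to 58.2 FPKM over the 29 fruiting libraries, with a median of 33.7, against 8.92, 9.02 and 11.4 FPKM in mycelium. In each of these 7 genes the lowest fruiting library was above the highest mycelium library.

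The remaining 16 of the 60 genes were 371, 906, 979, 1284, 2072, 2220, 2338, 3583, 3605, 3610, 5108, 5237, 5475, 5931, 6140 and 6940. Their lowest rise ran from 1.01 to 1.59 and their span from 0.79 to 1.37 on the log2 scale. Their mean over the fruiting groups lay between 10.8 and 418 FPKM, and their mean in mycelium between 3.19 and 92.9 FPKM. Their fruiting and mycelium libraries did not overlap, which follows from how the remainder was formed. All genes with such an overlap had already been named above. The highest fruiting library was 1169 FPKM, in gene 906, and the lowest was 5.67 FPKM, in gene 2220.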

How the data were processed

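Poly(A) RNA of 32 libraries from 11 groups was sequenced from both ends with a strand-specific kit, per the labels' protocols. The authors deposited estimated counts per gene, 95.2% of them whole within 0.000001, and log2 FPKM values for 10755 of the 12329 genes. Per the submitters' processing notes STAR, featureCounts, R 3.0.2, edgeR 3.4.2 and limma 3.18.13 were used, and the build of the genome is not stated in the sources used here. That the FPKM scale is log2 was read from the values: they equal log2 of the count plus 0.5 per kilobase and per scaled library total within 6.22e-14.

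The rule was applied to the group means of these values. Counts were rounded and tested with edgeR 4.0.16 in R 4.3.3 (quasi-likelihood test, TMM scaling, filterByExpr, 10814 genes, 21 residual degrees of freedom), with p-values adjusted over all genes tested. The code was tested on simulated data. DESeq2 1.42.0 and limma 3.58.1 on log2(FPKM + 1) were alternatives, as were other scalings, no filter, a replicate block, fewer groups in the fit and each library left out. Replicates are biological per the labels, and no 2 libraries of a group held the same values (0 of 31 pairs).

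The genes, lists and comparisons were chosen with earlier results of these data known. Genes were named by rule: the 5 with the largest rise, the 5 with the highest FPKM, the 5 with the smallest span, the 3 on each side of each threshold, the gene furthest above its own mean in each group, and the 2 with the largest and the 2 with the smallest SD between replicates. Others are said to be picked after their values were seen, or are given by their calls or as the remainder.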

Additional observations from a re-analysis of the deposited data

How the results depend on the processing

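The set depends on its thresholds. The rule found 246, 13 and 6 genes at a rise of 0.5, 1.5 and 2, and 20 and 104 at a span of 1 and 2. With no count minimum, 50 and 200 it found 70, 62 and 56 genes. Other scales gave 51 to 77 genes, and library size alone gave 63, of which 44 were among the 60. Leaving out 1 library gave 51 to 98 genes.

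When each fit held the compared groups alone, 27 genes were called higher in the dedifferentiated cap than in mycelium, 24 in all 10 groups, 12 in fruiting body against young stipes, and 26 calls were made in all 12 comparisons between fruiting groups. With no fold threshold those comparisons held 56 calls: 1 for stage 3 caps against stage 1 primordia, 11 for fruiting body against young caps, 20 for fruiting body against young stipes, and 9 for lamellae and 14 for the dedifferentiated cap against fruiting body caps. The share of all genes called without a fold threshold in these comparisons was not computed, so nothing is read from these counts. With library size alone and the fold threshold the comparisons held 33, with 7, 16 and 5 for caps, stipes and lamellae. That scaling moved the median of all genes from 0.03 to -0.24 for fruiting body against young caps, and that of the 60 genes from -0.33 to -0.61. DESeq2 size factors and the DESeq2 test both gave 8 for stipes and 0 for skin, and the DESeq2 test gave 1 for cap against stipe in fruiting bodies. limma gave 0 for skin and 3 for the dedifferentiated cap. The cause of these shifts was not tested.

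Leaving out 1 library gave 37 to 50 genes called in all 10 groups, 23 to 36 in the F test and 12 to 26 calls between fruiting groups. By comparison these were 0 to 5 for caps, 3 to 9 for stipes, 1 to 6 for lamellae, 0 to 1 for skin and 2 to 8 for the dedifferentiated cap. They were 0 to 1 for stage 3 stipes against stage 1 primordia, young against stage 3 stipes and cap against stipe in stage 3.

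Deviations from the group means were correlated between libraries of the same number in different groups. These correlations ran from -0.669 to 0.870 over 155 pairs, with a median of 0.001. For libraries of different numbers the median was -0.009. Medians over all groups cannot show whether particular groups were paired, and the main fit used no pairing. With the replicate block 50 genes were called in all 10 groups, 26 in the F test and 18 between fruiting groups. The rises of the 60 genes and of the genes named just outside the thresholds were recomputed under other scales and without each library. Of these values, 2522 moved by less than the spread between mycelium replicates, 31 by more and 0 changed sign, with a lowest rise of 0.62. The rise uses only mycelium and the lowest fruiting group. Leaving out a library of another group usually cannot change it, so much of the 2522 follows from the definition. The number of libraries, 2 or 3 a group, limits the precision of these calls.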

Other observations

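The count tables hold 1574 genes without FPKM values, and 0 of them met the rule on scaled counts. The 198 genes that were raised in all 10 fruiting groups with a wider span had a median span of 2.83 on the log2 scale. Their median SD between replicates was 0.55, against 0.39 for the 60 evenly raised genes and 0.42 for the 84 evenly lowered genes. Over all 6901 genes with enough counts it was 0.43. The mean of the primordial and young groups was above that of the fruiting body groups in 54.5% of the 198 genes and 22.6% of the 84.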
